A study of Drosophila melanogaster with 16 samples.

Results

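A group of 38 array features had a raised level in RasV12cdc42- and RasV12baz- tumours and a level near or below that of wild-type discs in RafGOFscrib- and RasV12scrib- tumours. They were chosen from 11196 features by their genotype means, after the median of each array had been subtracted: 0.6 or more on the log2 scale in both RasV12cdc42- and RasV12baz-, and under 0.3 in both RafGOFscrib- and RasV12scrib-. These means chose the members, so the levels below are a description and carry no test. All levels and folds against wild-type are given after the array median was subtracted. A value of 0 thus stands for the array median and not for equal RNA in tumour and wild-type. Of 307 features at 0.6 or more in both RasV12cdc42- and RasV12baz- (2.74% of all features), 90 were under 0.3 in RafGOFscrib-, 55 were under 0.3 in RasV12scrib-, and 38 were under 0.3 in both. With the limits turned round (-0.6 or less in both, above -0.3 in the other two) 10 features qualified.

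The tumours arose in Drosophila larvae from clones of mutant cells in the eye-antennal imaginal discs, epithelial sheets from which the adult eye, antenna and head capsule develop. The genotypes were an activated Ras (RasV12) with loss of cdc42 (RasV12cdc42-), RasV12 with loss of baz (RasV12baz-), a gain-of-function Raf with loss of scrib (RafGOFscrib-) and RasV12 with loss of scrib (RasV12scrib-). The alleles and the clone-inducing system are not given in the sources used here, nor is the share of mutant cells in the dissected tissue. Tumours of day 10 were each hybridised on a 2-colour array with wild-type reference RNA from discs of day 5 to 6, with 4 arrays per genotype, so tumour and age cannot be told apart in a level against wild-type. The larvae were raised at 25 °C and about 30 to 40 discs were dissected for RNA. RNA came from whole tissue, so more cells of a type and more RNA per cell cannot be told apart.

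Epithelial cells keep an apical and a basolateral side through opposing sets of proteins. Bazooka, the product of baz, is the fly Par-3 scaffold and works at the apical side with Par-6 and atypical protein kinase C, and Cdc42 is a small GTPase that binds Par-6 and activates this complex. Scribble, the product of scrib, is a basolateral scaffold that works with Discs large and Lethal giant larvae. Loss of any of these disturbs polarity, and in flies such a loss together with activated Ras signalling, which runs through the kinase Raf, is a classic model of malignant growth.

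Of the 38 members, 1 had a gene symbol in the annotation used here. It was Swim, which encodes a secreted protein that binds Wingless, a Wnt-family growth factor, and helps it to spread. The other 37 are given by their FlyBase identifier only, with no name or function assigned. Of 22 lists of genes drawn up for this tissue (560 symbols), 7 symbols were matched to a feature and Swim was the 1 member among them. Only 71 of all 11196 features had a symbol, so listed genes may be among the other 37 members without being recognised. None of the disc, haemocyte, muscle, neuron, glia, trachea and salivary gland markers was matched, so the tissue label was not checked by markers. Of the fat body markers only Lsp2, a larval serum protein, was matched, and its values stand beside the results below.

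RafGOFscrib- replicates 1 and 2 held equal values for 95.1% of features (no other 2 arrays exceeded 0.143%) and were averaged into 1 replicate, which left 3 for RafGOFscrib-. RasV12baz- replicate 4 was closer to RasV12cdc42- replicate 4 (r = 0.71 across all features) than to any array of its own genotype, and the averaged RafGOFscrib- pair was closest to RasV12scrib- replicate 1 (r = 0.64). In RasV12scrib- and RasV12cdc42-, replicates 1 and 2 were closest to each other (r = 0.77 and 0.80), as were replicates 3 and 4 (r = 0.81 in both). The tests below took the replicates as independent, so their SEs may be too small. With replicates 1-2 and 3-4 as random blocks, features that differed between RasV12cdc42- and RasV12baz- fell from 4 to 0. Between RafGOFscrib- and RasV12scrib- they fell from 141 to 22. A positive value is taken to mean more RNA in the tumour, a direction that rests on the order of the channels in the labels and is likely but not stated. With the opposite direction every "higher" below would be "lower". The number of arrays limits the precision, and signal over background was not used here.

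**Figure D1:**
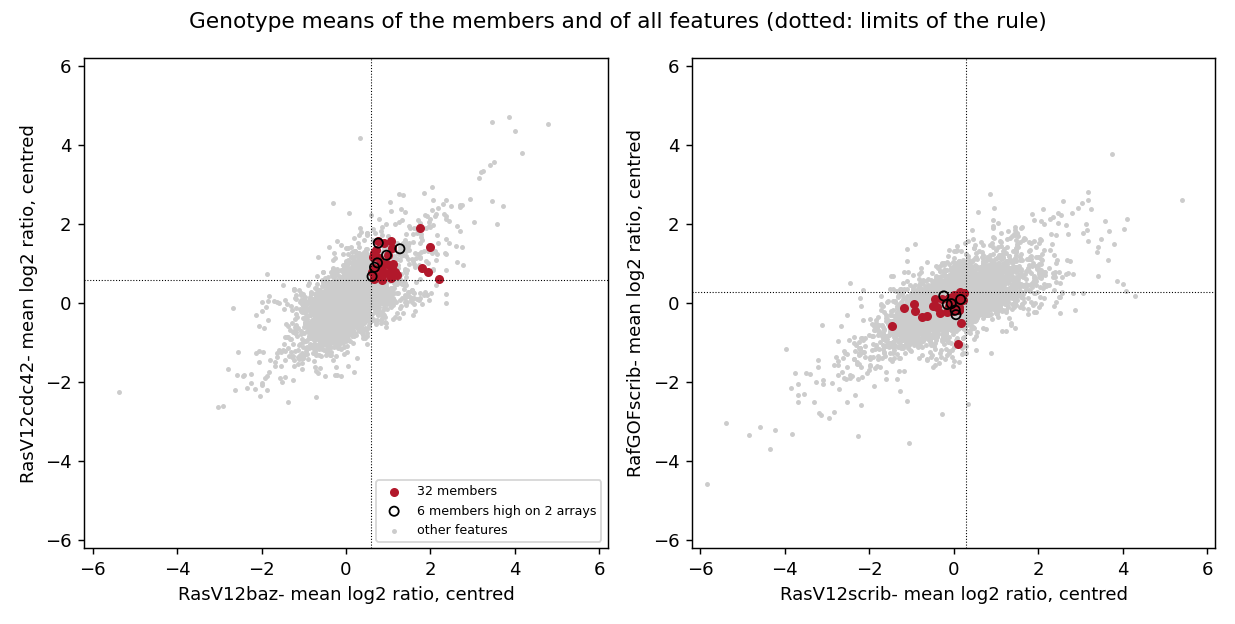
Mean centred log2 ratio of each feature, RasV12cdc42- against RasV12baz- on the left and RafGOFscrib- against RasV12scrib- on the right. Filled points are 32 members, open circles are the 6 members that were high on 1 array of RasV12cdc42- and 1 of RasV12baz-, grey points are all other features, and dotted lines are the limits of 0.6 (left) and 0.3 (right). On the right the members reach down to -1.47 in RasV12scrib- and to -1.03 in RafGOFscrib-.

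Among the members, genotype means spanned 0.60 to 1.90 in RasV12cdc42- (median 0.91), 0.62 to 2.21 in RasV12baz- (median 0.86), -1.03 to 0.29 in RafGOFscrib- (median -0.060) and -1.47 to 0.24 in RasV12scrib- (median -0.056). The mean of RasV12cdc42- and RasV12baz- exceeded that of RafGOFscrib- and RasV12scrib- by 0.56 to 2.02 (median 1.10), beside a median of 0.021 over all features. Lsp2 had means of -1.81 in RasV12cdc42-, -0.26 in RasV12baz-, -1.15 in RafGOFscrib- and -3.98 in RasV12scrib-. Only in RasV12cdc42- and RasV12scrib- was it below 0 on every array. The RasV12baz- mean had an SD of 2.18, with arrays from -3.16 to 2.13. The RafGOFscrib- mean rested on the averaged pair (-3.51), while replicates 3 and 4 gave -0.031 and 0.086. The Lsp2 difference of 1.53 had the same direction as that of the members, but it includes these 2 uneven means. The part of fat body RNA in the contrast was not tested. In 12 of the 38 members every RasV12cdc42- and RasV12baz- array lay above every RafGOFscrib- and RasV12scrib- replicate, and 0.697% of all features did so. All 8 RasV12cdc42- and RasV12baz- arrays were above 0 for 25 members, as they were for 5.89% of all features. Both counts follow in part from the way the members were chosen. In 33 members the RafGOFscrib- mean was within 0.3 of 0, and in 28 the RasV12scrib- mean was.

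The spread between replicates of the members was wider than that of all features in RasV12cdc42- (median SD 0.37 against 0.29) and in RasV12baz- (0.57 against 0.28). In RafGOFscrib- (0.28 against 0.26) and RasV12scrib- (0.36 against 0.37) the 2 medians were close. The rule favours features that 1 array lifts, so a wide spread in RasV12cdc42- and RasV12baz- is partly built in.

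**Figure D2:**
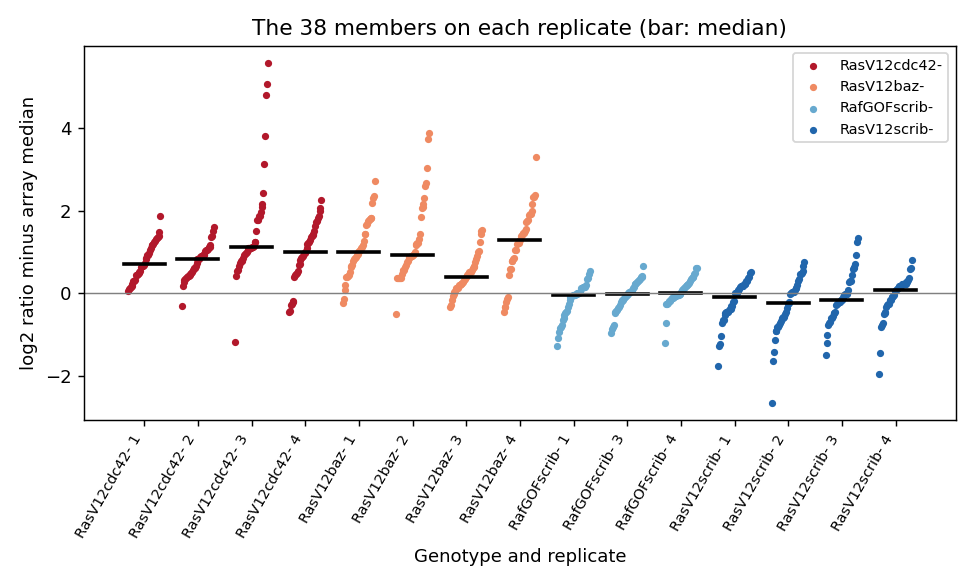
Centred log2 ratio of the 38 members on each of 15 replicates, as points sorted by value, with a bar at the median. The medians are 0.40 to 1.28 on the RasV12cdc42- and RasV12baz- arrays and -0.25 to 0.075 on the RafGOFscrib- and RasV12scrib- replicates, and RasV12cdc42- replicate 3 and RasV12baz- replicate 2 carry a few members far above the rest.

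On the 4 RasV12cdc42- arrays the median of the members was 0.70, 0.83, 1.11 and 1.01. On the RasV12baz- arrays it was 1.01, 0.92, 0.40 and 1.28. On the RafGOFscrib- replicates it was -0.045, -0.018 and 0.0072. On the RasV12scrib- arrays it was -0.098, -0.25, -0.16 and 0.075. RasV12baz- replicate 3 was the weakest of the RasV12baz- arrays, lowest of the 4 for 25 members and highest for none. It was also the array with the fewest features of any kind at 0.6 or more (3.02%, against 15.3% on RasV12baz- replicate 4). In RasV12cdc42-, the mean of replicates 1 and 2 was below that of replicates 3 and 4 for 30 members, and both arrays lay below both others for 16. The difference of these means had a median of -0.52 over the 38 members, and of -0.31 without 6 members that 1 array lifted, described below. The matching shares over all features were not counted, so nothing particular to the members is read from these values. Tumour RNA was labelled with Cy5 on replicates 1 and 2 and with Cy3 on 3 and 4, so dye and this pairing cannot be told apart there.

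Swim, the named member, was measured at 0.49, 0.62, 0.93 and 0.47 on the RasV12cdc42- arrays. The RasV12baz- arrays gave 2.71, 2.66, 1.50 and 1.98. The RafGOFscrib- replicates gave -0.052, -0.086 and -0.062, and the RasV12scrib- arrays gave -0.40, 0.021, -0.011 and -0.035. Every RasV12cdc42- and RasV12baz- array thus lay above every RafGOFscrib- and RasV12scrib- replicate, and the RasV12baz- arrays lay above those of RasV12cdc42-. The means were 0.63 ± 0.21 in RasV12cdc42- (1.54-fold), 2.21 ± 0.58 in RasV12baz- (4.64-fold), -0.067 ± 0.018 in RafGOFscrib- and -0.11 ± 0.19 in RasV12scrib- (SD, n = 4, 4, 3 and 4). Swim held the highest RasV12baz- mean of all members, yet it was 34th of 38 by the smaller of its RasV12cdc42- and RasV12baz- means. Its RasV12cdc42- mean was close to the limit of 0.6. Without RasV12cdc42- replicate 3, or with medians over replicates, Swim did not meet the rule. It met the rule in 14 of 15 settings that left out 1 replicate and in 6 of 7 others with the same limits.

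Among the members without a symbol, FBgn0039723 and FBgn0003495 had the highest values of the smaller mean and are given by the rule for naming. All further identifiers were chosen after their values were seen. FBgn0039723 stood at 1.87, 1.38, 2.08 and 2.26 in RasV12cdc42- and at 1.83, 1.85, 1.03 and 2.34 in RasV12baz-, against -0.82, 0.068 and 0.086 in RafGOFscrib- and 0.37, -0.83, -0.48 and 0.27 in RasV12scrib-. Its means were 1.90 ± 0.38 (3.73-fold) in RasV12cdc42- and 1.76 ± 0.54 (3.39-fold) in RasV12baz-. In both it stood clear of the RafGOFscrib- and RasV12scrib- values.

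FBgn0003495 gave 1.33, 1.62, 1.24 and 1.50 in RasV12cdc42- and 2.31, 2.10, 1.43 and 2.17 in RasV12baz-. It gave -0.44, -0.29 and 0.24 in RafGOFscrib- and 0.050, 0.091, 0.0079 and 0.36 in RasV12scrib-. No array of the first pair of genotypes came within 0.8 of an array of the other pair. FBgn0032006, another of the 12 members without overlap, had means of 0.996 ± 0.20 in RasV12cdc42- and 1.11 ± 0.15 in RasV12baz-, against 0.25 ± 0.32 in RafGOFscrib- and 0.19 ± 0.14 in RasV12scrib-. Its RafGOFscrib- replicates were at 0.16, -0.0055 and 0.61. FBgn0032006 met the rule in 13 of 15 settings that left out 1 replicate and in 4 of 7 others with the same limits. The other 8 without overlap were FBgn0038366, FBgn0037999, FBgn0003447, FBgn0037166, FBgn0037623, FBgn0033724, FBgn0037207 and FBgn0029167.

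**Figure D3:**
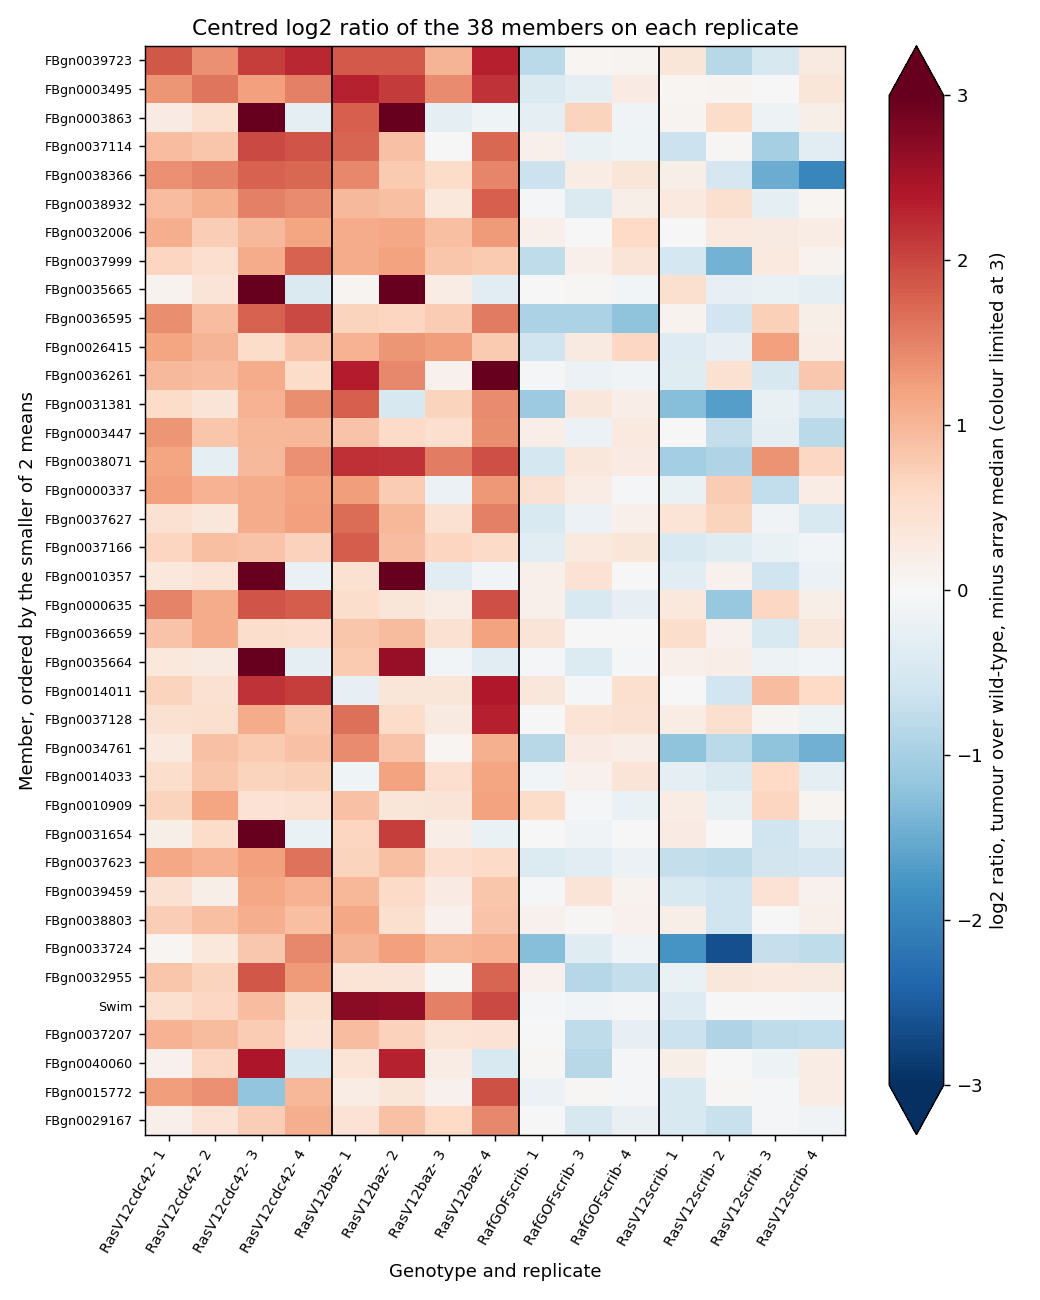
Heat map of the centred log2 ratio of each member (rows, ordered by the smaller of the RasV12cdc42- and RasV12baz- means) on each replicate (columns, in blocks by genotype). Red is above and blue below the array median, with the colour limited at 3. RasV12cdc42- replicate 3 and RasV12baz- replicate 2 show dark red for a few rows that are pale elsewhere, such as FBgn0003863, FBgn0035665 and FBgn0010357.

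A few members were below wild-type after centring in RasV12scrib-, so that their contrast between genotypes came from both sides. Means under -0.5 in RasV12scrib- were found for 6 members, and under -0.5 in RafGOFscrib- for 2. FBgn0033724 had the lowest, with -1.77, -2.65, -0.70 and -0.76 on the RasV12scrib- arrays and -1.28, -0.36 and -0.10 in RafGOFscrib-. It was at 0.048, 0.32, 0.80 and 1.44 in RasV12cdc42- and at 1.02, 1.23, 1.001 and 1.05 in RasV12baz-. FBgn0034761 averaged -1.17 ± 0.26, FBgn0038366 -0.95 ± 0.96, FBgn0031381 -0.91 ± 0.67, FBgn0037207 -0.76 ± 0.11 and FBgn0037623 -0.63 ± 0.13 in RasV12scrib- (SD, n = 4). FBgn0037623 lay below the array median on each of the 7 RafGOFscrib- and RasV12scrib- replicates and above it on each of the 8 others.

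**Figure D4:**
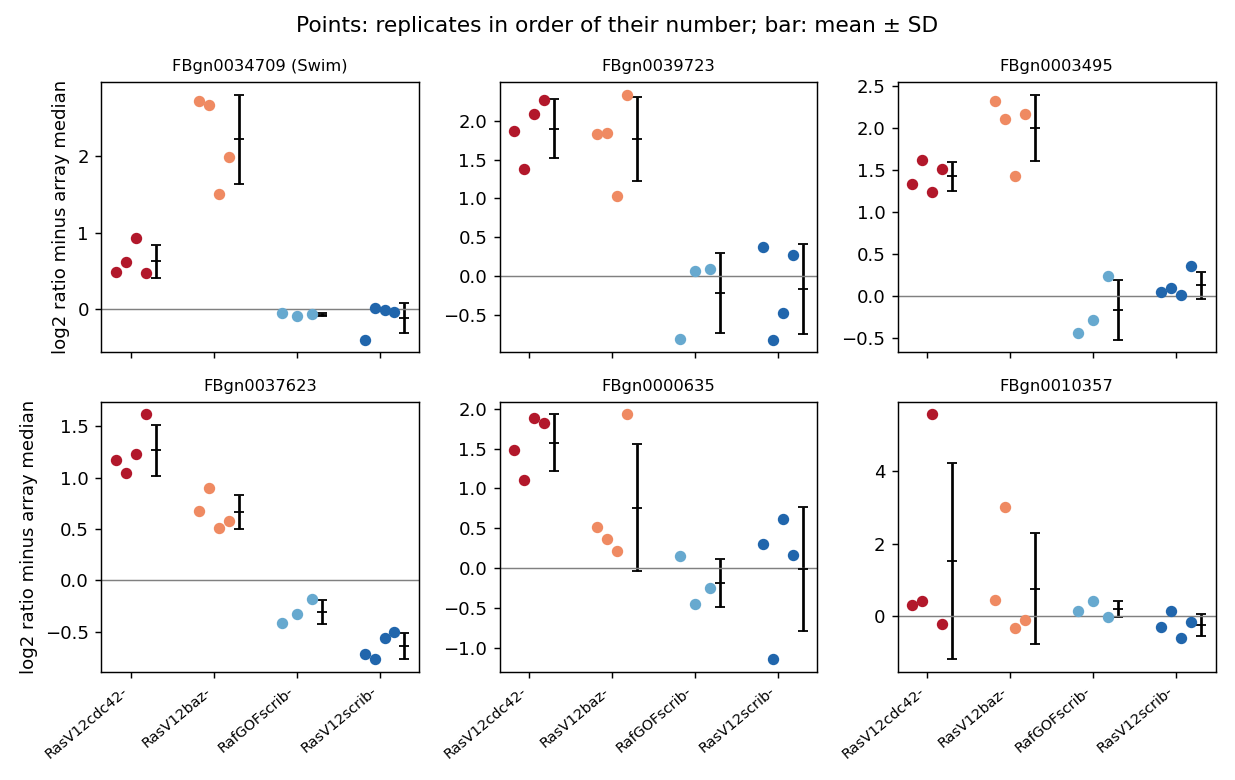
Centred log2 ratio (vertical axis, own scale in each panel) of Swim, FBgn0039723, FBgn0003495, FBgn0037623, FBgn0000635 and FBgn0010357 by genotype. Points are replicates in order of their number and bars are mean ± SD (n = 4, 4, 3 and 4). In the first 4, all RasV12cdc42- and RasV12baz- arrays lie above all RafGOFscrib- and RasV12scrib- replicates. FBgn0000635 has 1 high RasV12baz- array (1.93), and FBgn0010357 has 1 high array in RasV12cdc42- (5.58) and 1 in RasV12baz- (3.02).

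Not every member was high across its genotypes. In 6 members (FBgn0003863, FBgn0010357, FBgn0031654, FBgn0035664, FBgn0035665 and FBgn0040060) the means rested on RasV12cdc42- replicate 3, with values from 2.42 to 5.58, and on RasV12baz- replicate 2, with values from 2.07 to 3.88. On RasV12cdc42- replicate 4 the same 6 lay between -0.45 and -0.19, and on RasV12baz- replicate 4 between -0.46 and -0.092. The ratio of FBgn0010357 to wild-type was 47.8-fold above the array median on RasV12cdc42- replicate 3 and 8.13-fold above it on RasV12baz- replicate 2. Its other RasV12cdc42- arrays gave 0.31, 0.42 and -0.20, and its other RasV12baz- arrays 0.45, -0.32 and -0.092. FBgn0003863 was also high on RasV12baz- replicate 1 (1.78). No feature outside the members was above 2 on both of RasV12cdc42- replicate 3 and RasV12baz- replicate 2 while staying under 1 on the other RasV12cdc42- arrays and on RasV12baz- replicates 3 and 4. These limits were set after the values of the 6 were seen. The rule also favours features that 1 array lifts, so nothing is read from this absence.

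For these 6 the description of a gene raised with loss of cdc42 or baz does not hold at the level of the genotype. Without RasV12cdc42- replicate 3, or without RasV12baz- replicate 2, none of the 6 met the rule. With medians over replicates in place of means, none of them did either. Lsp2, the 1 matched marker of fat body, was at -0.44, -1.70, -2.40 and -2.69 on the RasV12cdc42- arrays and at 2.13, -0.035, 0.013 and -3.16 on the RasV12baz- arrays. Lsp2 was not highest on either of the 2 arrays that carried these members. As a marker of fat body it does not bear on other tissues. Of 25 listed tracheal, salivary gland and gut markers 0 were matched to a feature. The part of other tissues was not tested.

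In 7 members the RasV12baz- mean was below 0.6 without replicate 4, the array that resembled RasV12cdc42- replicate 4. Replicate 4 was the highest RasV12baz- array for 5 of them, and another array was for FBgn0014033 and FBgn0038803. The mean of FBgn0038803 moved only to 0.59 without replicate 4, against 0.66 with it. FBgn0000635 was at 0.52, 0.37, 0.22 and 1.93 in RasV12baz- and at 1.48, 1.11, 1.88 and 1.82 in RasV12cdc42-, so that replicate 4 alone of the RasV12baz- arrays reached the RasV12cdc42- range. FBgn0014011 was at -0.24, 0.37, 0.35 and 2.39 in RasV12baz- and at 0.67, 0.45, 2.16 and 2.08 in RasV12cdc42-. The others with replicate 4 highest were FBgn0010909, FBgn0015772 and FBgn0032955. Without this replicate 31 of the 38 remained members, and without it and the averaged RafGOFscrib- pair 27 did.

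RasV12cdc42- and RasV12baz- both carry RasV12 and lack different polarity genes, and the rule did not fix which of the 2 was higher. It did require 0.6 or more in both, which leaves out features high in 1 of them alone, so a low count of differences among the members is partly built in and nothing is read from it. The RasV12cdc42- mean was the higher for 21 members and the RasV12baz- mean for 17, and in 27 members the 2 means were within 0.5 of each other. None of the 38 members differed between RasV12cdc42- and RasV12baz- (limma, adjusted p under 0.05 over all 11196 features), where 4 features in all did (0.0357%). At an unadjusted p under 0.05 there were 5 members, beside 7.17% of all features. The fitted differences of the members had a median of 0.11 and ran from -1.50 to 1.45, with a median SE of 0.35.

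Swim came nearest to the threshold, lower in RasV12cdc42- than in RasV12baz- by a fitted log2 difference of -1.50 ± 0.27 (SE, limma adjusted p = 0.0917). The 4 arrays of RasV12cdc42- all lay below the 4 of RasV12baz-. It passed in 7 of 27 other settings, and its limma adjusted p ranged from 0.000226 to 0.884, the latter with random blocks of replicates 1-2 and 3-4. Without RasV12baz- replicate 1, 2, 3 or 4 the limma adjusted p was 0.316, 0.295, 0.0158 and 0.0308. Without RasV12cdc42- replicate 1, 2, 3 or 4 it was 0.221, 0.136, 0.376 and 0.472. FBgn0037623 was next, at 0.68 ± 0.19 higher in RasV12cdc42- (limma adjusted p = 0.323), again with no overlap. FBgn0003495 differed by -0.56 ± 0.24 (limma adjusted p = 0.666). Over their other settings the adjusted p ranged from 0.00292 to 0.9998 for FBgn0037623 and from 0.0141 to 0.9999 for FBgn0003495, each past the threshold with array weights only.

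RafGOFscrib- and RasV12scrib- share the loss of scrib and differ in the oncogene. None of the 38 members differed between them (limma, adjusted p under 0.05), where 141 features in all did (1.26%). The rule required means under 0.3 in both, which leaves out features high in 1 of them alone. A low count among the members is thus partly built in, and nothing is read from it. At an unadjusted p under 0.05 there were 6 members, beside 12.9% of all features. FBgn0036595 came nearest. It was at -0.94, -0.96 and -1.20 in RafGOFscrib- and at 0.096, -0.57, 0.70 and 0.17 in RasV12scrib-, a fitted log2 difference of -1.16 ± 0.35 (SE, limma adjusted p = 0.136). All 3 RafGOFscrib- replicates lay below the 4 RasV12scrib- arrays. It passed in 2 of 27 other settings, without RasV12scrib- replicate 2 (limma adjusted p = 0.0360) and with array weights (limma adjusted p = 0.0210). Its highest adjusted p over these settings was 0.606.

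Labelling with Cy5 or Cy3 made no member pass a test of the dye term (limma, lowest adjusted p among members 0.304). Of all 11196 features 0 passed (limma, lowest adjusted p 0.284), so the absence of members is no result about them. At an unadjusted p under 0.05 there was 1 member, beside 13.3% of all features. The fitted effect of Cy5 over Cy3 was below 0 for 28 of the 38 members, with a median of -0.19, beside -0.025 over all features. It ran from -1.38 to -0.35 in the 6 members that were high on RasV12cdc42- replicate 3, an array with tumour RNA in Cy3. The share of all features below 0 was not counted, so nothing particular to the members is read from this. With genotype means taken from the fit with the dye term, 26 of the 38 met the rule, among them 1 of the 6 members that 1 array lifted in each genotype.

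Members and other features were close together at the limits. FBgn0029167, with 0.602 in RasV12cdc42-, FBgn0015772, with 0.608 in RasV12cdc42-, and FBgn0037128, with 0.287 in RafGOFscrib-, were just inside. FBgn0026084, with 0.3002 in RafGOFscrib-, FBgn0004002, with 0.595 in RasV12baz-, and FBgn0020647, with 0.589 in RasV12cdc42-, were just outside.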

How the data were processed

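The authors deposited 1 table of log2 ratios of tumour over wild-type reference, 1 column per array, all 16 used. Its scanning, background correction and normalisation are not given in the sources used here, nor are scale and direction. The base was inferred from 409 values that recur on an array: 36.7% matched, within 1e-05, log2 of a quotient of integers no larger than 9, and 0% matched its natural or decimal logarithm. The deposited medians ran from -0.12 to 0.48, and each array was centred on its median, as the choice of members was.

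Identifiers were matched to the synonyms and symbols of a RefSeq gene table (Release 6 assembly), which gave 1 symbol to 71 features. The array's build is not given, so no positions are printed. No sequences were used here. Up to 30 named members were to be reported. With 1 named, 2 unnamed ones follow the rule, and the others were chosen after their values were seen. The members and gene lists were chosen with earlier results of these data known.

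Genotype means and a dye effect were estimated jointly over 15 replicates (limma 3.58.1, R 4.3.3), with empirical Bayes moderation and Benjamini-Hochberg adjustment over all 11196 features, two-sided, at 0.05. Genotypes with no swapped array (RafGOFscrib- and RasV12baz-) take a dye correction from the others. The fit was tested on simulated data. The labels call the arrays biological replicates. Same-numbered replicates of different genotypes did not consistently deviate together (21 pairs, r from -0.35 to 0.36, median 0.13, against a median of -0.0535 over 63 other pairs), so numbers were not taken as pairs. Figures used matplotlib 3.10.9 (Python 3.11.15).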

Additional observations from a re-analysis of the deposited data

Results flagged for a closer look

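Within a genotype of 4 arrays, 1 array stood apart from the others for 12 of 114 combinations of member and genotype (10.5%), where about 1 in 20 is given by chance and 5.59% was found over all features. The choice of members by their means favours features that 1 array lifts, so a higher share among them is partly built in. Those of the members described above by their array values follow. On RasV12cdc42- replicate 3, FBgn0003863 (5.06), FBgn0010357 (5.58) and FBgn0035665 (4.81) were far above the other 3 arrays. FBgn0035665 was also far above the rest on RasV12baz- replicate 2 (3.88) and, at a much lower level, on RasV12scrib- replicate 1 (0.49). FBgn0036595 stood apart on RasV12baz- replicate 4 (1.56). Swim stood apart, on the low side, on RasV12scrib- replicate 1 (-0.40). RafGOFscrib-, with 3 replicates, was not tested in this way.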

How the results depend on the processing

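Membership depended on the scaling more than its count did. The same limits picked 37 features without centring and 41 with quantile normalization, of which 23 and 22 were among the 38, and 26 with medians over replicates, of which 22 were. Limits of 0.8 and 0.3 picked 15. Leaving out 1 replicate at a time gave 29 to 46 features, and 9 members were kept each time. Features that differed between RasV12cdc42- and RasV12baz- numbered 46 with quantile normalization (14 higher, 32 lower, against 2 and 2), 23 without the dye term, 7 with the RafGOFscrib- pair kept separate, 2 with replicate block, 0 with random blocks of replicates 1-2 and 3-4, 0 in a fit of the 2 genotypes alone, 177 without the arrays in doubt (RasV12baz- replicate 4 and the averaged pair, chosen after seeing the data) and 3449 with array weights. Without 1 replicate they numbered 0 to 73: 1, 0, 12 and 73 without RasV12baz- replicates 1, 2, 3 and 4, and 0 without RasV12cdc42- replicate 3 or 4. Members among them were 1 (Swim) with quantile normalization, without the dye term and with the pair separate, 2 (Swim and FBgn0032955) without the arrays in doubt, 16 with array weights and 0 to 1 without 1 replicate. Between RafGOFscrib- and RasV12scrib- the features numbered 225 without the dye term, 93 on Cy3 arrays, 74 with replicate block, 22 with random blocks, 264 with the pair separate, 306 with array weights, 82 with robust moderation, 45 from the 2 genotypes alone and 379 without the arrays in doubt. Uncentred values gave 91 higher and 41 lower, against 70 and 71. Without 1 replicate they numbered 37 to 202, with 37 and 47 without RafGOFscrib- replicates 3 and 4, and 69, 78 and 71 without RasV12cdc42- replicates 1, 3 and 4. Members among them were 1 (FBgn0032955) without the arrays in doubt, 1 (FBgn0036595) with array weights and 0 to 1 without 1 replicate. Dye effects were called for 6480 features with array weights and for 0 to 55 without 1 replicate (55 without RasV12scrib- replicate 3). The estimation of the array weights stopped before it converged. The causes were not tested. The replicate block changed no member's call. Their sign being fixed by the choice of members, the differences between genotype pairs are given by size only. Over 18 settings those of FBgn0010357 (1.17), FBgn0003863 (1.20), FBgn0035665 (1.12) and FBgn0014011 (0.78) were as low as 0.49, 0.58 and 0.52 without RasV12cdc42- replicate 3 and, for FBgn0014011, 0.50 without RasV12baz- replicate 4.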

Other observations

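Among the 71 features with a symbol, Idgf3, a chitinase-like imaginal disc growth factor, was ordered like the members without meeting the limits. It averaged 0.55 ± 0.35 in RasV12cdc42- and 0.26 ± 0.18 in RasV12baz-, against -0.38 ± 0.34 in RafGOFscrib- and -0.68 ± 0.22 in RasV12scrib- (SD, n = 4, 4, 3 and 4), and its lowest RasV12cdc42- and RasV12baz- array (0.042) lay above its highest RafGOFscrib- and RasV12scrib- replicate (-0.048). Idgf3 was chosen after its values were seen, and the difference was not tested here. The other matched genes apart from Swim did not meet the limits either (the values of Lsp2 are given above): Ts, which encodes thymidylate synthase, averaged 0.0092 in RasV12cdc42-, 0.65 in RasV12baz-, 0.94 in RafGOFscrib- and -0.42 in RasV12scrib-. Treh, which encodes trehalase, averaged 0.20, 0.33, 0.28 and 1.19 in the same genotypes, LanA, a laminin subunit, 0.0040, -0.0080, -0.073 and -0.25, and Eig71Ee, an ecdysone-induced gene, -0.18, -1.01, -0.97 and -2.24.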
